A study of Mus musculus with 15 samples.

Results

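The genes described here encode proteins that mesenchymal cells lay down around themselves and the enzymes that crosslink them: Fn1, Sparc, Tgfbi, Tnc, Col5a1, Col6a3, Fbn1, Lox and Loxl2. They are 9 of 49943 gene records in the RefSeq table used here, whose assembly, GRCm38.p6, corresponds to mm10. The genes were given by name, and their accessible regions were taken as every merged peak that overlapped a gene body or lay within 20 kb of it. This gave 33 of the 67945 peaks in the count table, 18 touching a gene body and 15 in the flanks. The assay was ATAC-seq: a transposase cuts DNA that is open and leaves sequencing adapters there, so reads pile up over accessible chromatin.

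Each library came from 1 mouse pancreatic tumour cell clone, implanted under the skin of C57BL/6 mice and left untreated. For each clone 50000 tumour cells were sorted from such tumours 3 weeks later. The T cell high group, clones whose tumours hold many T cells by the labels, comprised 2838c3, 6421c2, 6499c4, 6555c3, 6620c1 and 7160c2 (n = 6). The T cell low group comprised 6694c2, 6556c3, 6499c3, 6422c1, 6419c5, 6419c1 and 2699c4 (n = 7). The labels also list 2 T cell intermediate clones, not analysed here, among 15 samples. Each clone was represented by 1 library, so a property of the clone and of the tumour it was sorted from cannot be told apart. The labels do not give the clones' driver alleles or the age and sex of the host mice. Counts in peaks ranged from 968296 in 7160c2 to 5936823 in 6499c4 among T cell high libraries and from 1030616 in 6556c3 to 7369228 in 6419c1 among T cell low libraries. The p-values below judge the difference between the groups against the spread between clones, with each clone as 1 sample.

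Fibronectin and the collagens form the fibrous scaffold of the extracellular matrix, and matricellular proteins such as SPARC and tenascin-C alter how cells attach to it. Lysyl oxidases oxidise lysine residues on collagen and elastin, which lets the fibres crosslink and stiffen. In pancreatic cancer much of the dense stroma is made by fibroblasts, while carcinoma cells that have passed through an epithelial-to-mesenchymal transition can also make these proteins. An open peak near a gene marks DNA that the transposase could reach, and is not a measure of the gene's transcript or protein.

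The promoters with a called peak are shown because the presence of a peak at the start site divided these genes. RefSeq windows of 300 bases, from 250 before to 50 after a start site, were listed for 6 of the 9 genes: Sparc, Tgfbi, Tnc, Col5a1, Col6a3 and Fbn1. A called peak overlapped the windows of Sparc, Tgfbi, Tnc and Col5a1. The windows of Col6a3 and Fbn1 overlapped none. The 4 sequences run 5′ to 3′ on the gene's own strand in GRCm38.p6 coordinates. Sparc is at chr11:55420031-55420330 on the minus strand, Tgfbi at chr13:56609336-56609635 on the plus strand, Tnc (the downstream one of its 2 listed windows) at chr4:64046887-64047186 on the minus strand, and Col5a1 at chr2:27886175-27886474 on the plus strand. Capitals mark matches, on either strand, to the SMAD-type motif CAGAC, the SP1-type motif GGGCGG and the TATA-type motif TATAA.
Sparc: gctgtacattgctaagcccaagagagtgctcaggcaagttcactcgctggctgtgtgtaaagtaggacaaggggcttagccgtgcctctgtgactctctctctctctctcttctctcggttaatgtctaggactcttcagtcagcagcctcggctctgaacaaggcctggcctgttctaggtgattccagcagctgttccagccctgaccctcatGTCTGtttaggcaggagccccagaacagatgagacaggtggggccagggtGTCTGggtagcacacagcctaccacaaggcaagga
Tgfbi: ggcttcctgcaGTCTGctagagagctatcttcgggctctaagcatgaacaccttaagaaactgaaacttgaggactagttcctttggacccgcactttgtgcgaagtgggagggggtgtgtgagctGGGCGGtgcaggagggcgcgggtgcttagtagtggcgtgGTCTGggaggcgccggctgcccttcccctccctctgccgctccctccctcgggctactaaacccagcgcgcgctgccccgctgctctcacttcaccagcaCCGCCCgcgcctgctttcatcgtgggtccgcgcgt
Tnc: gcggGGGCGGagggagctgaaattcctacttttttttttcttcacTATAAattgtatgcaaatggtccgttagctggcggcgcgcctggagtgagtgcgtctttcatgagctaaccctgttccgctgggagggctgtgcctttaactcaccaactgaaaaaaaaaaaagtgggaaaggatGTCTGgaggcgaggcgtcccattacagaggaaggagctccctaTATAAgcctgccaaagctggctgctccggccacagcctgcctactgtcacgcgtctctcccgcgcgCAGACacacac
Col5a1: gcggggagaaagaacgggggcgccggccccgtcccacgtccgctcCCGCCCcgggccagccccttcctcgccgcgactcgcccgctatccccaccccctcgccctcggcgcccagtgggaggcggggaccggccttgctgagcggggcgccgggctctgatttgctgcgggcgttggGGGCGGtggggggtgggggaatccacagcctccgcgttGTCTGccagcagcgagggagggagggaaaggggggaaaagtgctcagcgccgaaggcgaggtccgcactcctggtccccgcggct

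Base composition differed widely among these promoters. The Col5a1 window was 75.0% GC with 34 CpG dinucleotides, a GC share above that of 96.1% of the 32851 windows in the table. The Tgfbi window had 63.3% GC and 22 CpG, the Tnc window shown had 54.0% GC and 16 CpG, and the Sparc window had 55.3% GC and 4 CpG. The median window of the table had 52.7% GC and 7 CpG. The Sparc peak covered 138 bases of its window, whereas the Tgfbi, Tnc and Col5a1 peaks covered all 300.

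The Tnc window held TATAA at 27 bases before the start site, position -27, and again at -205. The AP-1 motif TGANTCA, the TEAD motif GGAATG and the CCAAT box CCAAT, searched on both strands, matched none of the windows of the 6 genes. These motifs occurred in 7.81%, 14.7% and 37.4% of all windows. CAGAC occurred in 49.6% of all windows, GGGCGG in 35.7% and TATAA in 24.9%, so single matches of these short words are common. The motifs searched do not overlap one another in the windows shown. A match is a run of letters only, and the absence of one covers only the 300 bases searched.

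At none of the 9 genes was a difference between the T cell groups detected. Counts were compared with edgeR's quasi-likelihood F-test, two-sided, over all peaks, and separately over all genes after summing the peaks of each gene, with Benjamini-Hochberg adjustment over everything tested. Of the 33 peaks, 28 passed the filter on low counts, and of these 16 were higher and 12 lower in T cell high clones. At an unadjusted p under 0.05 there were 0 of the 28 peaks, against 6.83% of all 59252 tested peaks. At an adjusted p under 0.05 there were 0, against 0% of all tested peaks. The median log2 fold change of the 28 peaks, T cell high over T cell low, was 0.04, against 0.01 over all tested peaks. In 0 of the 28 did the groups separate without overlap, as they did in 0.162% of all tested peaks.

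Summed over its peaks, each gene gave the same picture. All 9 genes were tested, 6 were higher and 3 lower in T cell high clones, and 0 had an unadjusted p under 0.05, against 7.03% of all 31759 genes tested. After adjustment 0 of the 9 genes were called, against 0.00315% of all genes. The smallest adjusted p among the 9 was 0.791 by edgeR's quasi-likelihood F-test. DESeq2's Wald test, which called 48 of all peaks and 28 of all genes, called 0 of the peaks and 0 of the genes described here, and gave no adjusted p for Lox. The median log2 fold change was 0.04 over the 9 genes and -0.02 over all genes tested.

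The intervals show what size of difference these data allow. The 95% interval of the log2 fold change lay wholly between -1 and 1, for 7 of the 9 summed genes, and for 9 of the 28 peaks. Only Tnc and Lox had wider summed intervals. Counts per gene and library ranged from 4 for Lox to 579 for Sparc. Because the cells were measured in bulk, fewer cells with an open site and less opening per cell cannot be told apart.

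**Figure D1:**
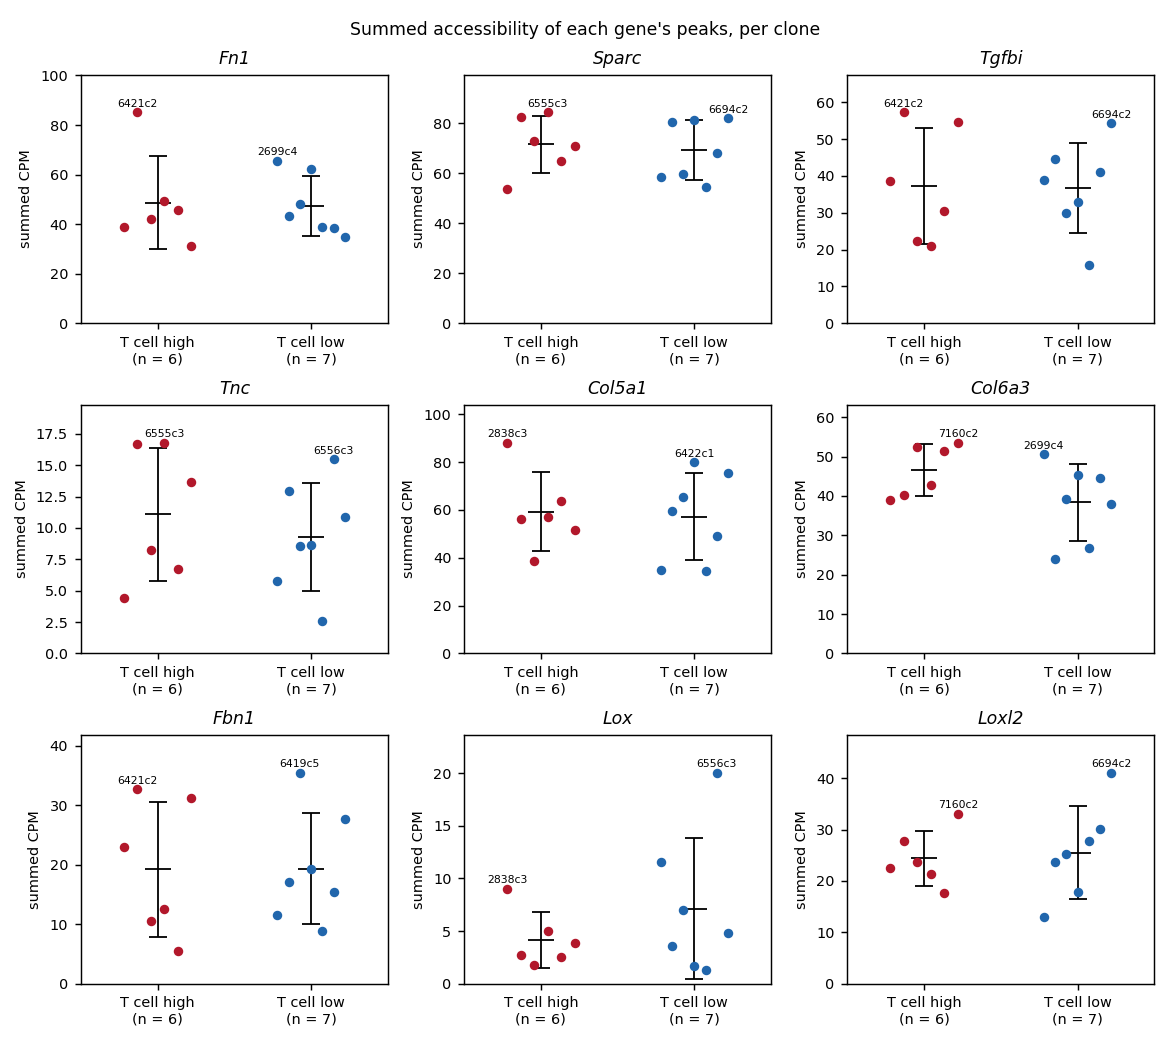
Summed CPM (counts scaled to library size) of all peaks of each gene, 1 point per clone, T cell high left and T cell low right. Horizontal bars show the mean and vertical bars 1 SD (n = 6 and n = 7), and the highest clone of each group is named. The groups overlap for all 9 genes, and the clone 6421c2 stands apart for Fn1 at 85.1 CPM.

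Fn1 encodes fibronectin, the adhesive glycoprotein that cells assemble into fibrils through integrins. Levels are in CPM, the count as a share of the TMM-scaled library size. Its summed accessibility was 31.2, 43.9 and 85.1 CPM at the lowest, median and highest T cell high clone, against 35.0, 43.2 and 65.6 CPM in T cell low clones. The groups overlapped almost fully, with 6421c2 highest and 7160c2 lowest, both T cell high. Fn1 averaged 48.7 ± 18.9 CPM in T cell high clones and 47.4 ± 12.1 CPM in T cell low clones (SD, n = 6 and 7). Its log2 fold change was 0.04 with a standard error of 0.23 and an adjusted p of 0.979 by edgeR's quasi-likelihood F-test.

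Per kb of summed peak length, Fn1 was the most accessible of the 9 genes. Its summed signal was 29.1 ± 9.05 CPM per kb over the 13 clones (SD), and Sparc came next with 14.99 ± 2.41. The lowest Fn1 value of any clone, 18.9 CPM per kb, exceeded the highest Sparc value, 17.97. Then came Col6a3 at 12.2 ± 2.65, Tgfbi at 11.4 ± 4.11, Loxl2 at 11.1 ± 3.24, Col5a1 at 10.8 ± 3.10 and Fbn1 at 9.75 ± 4.98 CPM per kb. From Col6a3 to Fbn1, neighbours in this order differed by less than their SDs. Tnc at 7.25 ± 3.37 and Lox at 6.02 ± 5.48 CPM per kb stood last and likewise overlapped. The median tested peak of the 9 genes had 9.95 CPM per kb, against 12.96 over all tested peaks.

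The Fn1 gene (chr1:71585473-71653280) held 2 peaks, both within the 3 kb next to its right-hand end. No RefSeq window was listed for Fn1, so the larger peak, chr1:71652586-71653950, is placed at the gene end only, and it also overlaps the Apol7d record. This peak averaged 44.0 ± 16.4 CPM in T cell high and 43.5 ± 12.3 CPM in T cell low clones (SD, n = 6 and 7), with a log2 fold change of 0.02 and an adjusted p of 0.994 by edgeR. Its 32.0 CPM per kb was above that of 87.9% of tested peaks. Sparc peak 7, described below, was slightly higher, with 32.7 CPM per kb, above 88.4%. The smaller peak at chr1:71650756-71651038 averaged 4.74 ± 2.94 CPM in T cell high and 3.90 ± 2.12 CPM in T cell low clones, and had 0 counts in 7160c2, the shallowest library.

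Sparc encodes SPARC, also called osteonectin, a secreted protein that binds collagen and calcium. It had the most peaks of the set, 7, and 83.5% of protein-coding genes had fewer. Summed accessibility was 53.7, 72.0 and 84.4 CPM at the lowest, median and highest T cell high clone, against 54.6, 68.3 and 82.0 CPM in T cell low clones. The 2 ranges nearly coincided. The means were 71.6 ± 11.4 CPM in T cell high and 69.3 ± 12.04 CPM in T cell low clones (SD, n = 6 and 7). The log2 fold change was 0.04 ± 0.17 (SE), with an adjusted p of 0.970 by edgeR. Sparc varied little between clones: its SD of log2 CPM, 0.24, was above that of 6.9% of tested genes, and the median gene had 0.39.

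Within the Sparc locus (gene body chr11:55394159-55420080) the tallest peak was distal. Peak 7 at chr11:55427981-55428960, centred at -8390 bp from the start site, had 24.3, 35.2 and 57.5 CPM at the lowest, median and highest T cell high clone, against 15.03, 27.2 and 41.4 CPM in T cell low clones. Its means were 36.5 ± 12.6 CPM in T cell high and 28.3 ± 8.52 CPM in T cell low clones, and its log2 fold change of 0.36 ± 0.25 (SE) had an adjusted p of 0.820 by edgeR. The peak over the promoter shown above, chr11:55419625-55420168, was far weaker, with 3.68 ± 2.85 CPM in T cell high and 5.38 ± 3.80 CPM in T cell low clones (log2 fold change -0.52, SE 0.55, adjusted p 0.894 by edgeR).

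The smallest p of any peak of the 9 genes lay inside Sparc. Peak 3 at chr11:55414349-55414777, centred 5517 bp into the gene, had 0.420, 1.33 and 5.45 CPM at the lowest, median and highest T cell high clone, against 0.654, 5.43 and 8.22 CPM in T cell low clones. The groups overlapped, with 6421c2 and 7160c2 high among T cell high clones and 6499c3 low among T cell low clones. The means were 2.20 ± 2.02 CPM in T cell high and 4.68 ± 2.52 CPM in T cell low clones (SD, n = 6 and 7). On the log2 scale the fold change was -1.18, with a standard error of 0.60, an unadjusted p of 0.0605 and an adjusted p of 0.742 by edgeR. Without 6421c2 the log2 fold change was -1.84 with an unadjusted p of 0.00869 and an adjusted p of 0.510 in the same edgeR test. Without 6419c1 it was -0.95 with an unadjusted p of 0.140, the smallest change when any 1 library was left out.

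The direction of the summed Sparc value depended on the window. Counting peaks of the gene body alone gave a log2 fold change of -0.33, and with 5 kb of flank it was -0.39, and neither window holds the flank peaks 1 and 7. Neither passed the test.

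**Figure D2:**
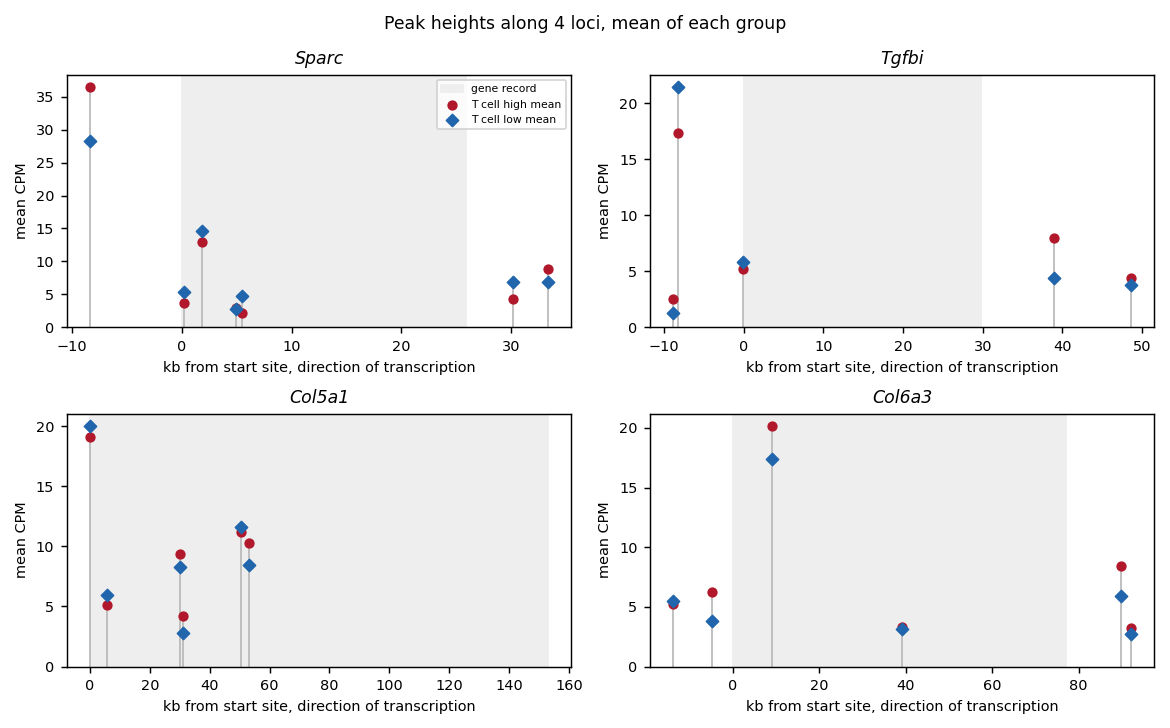
Mean CPM of each peak along Sparc, Tgfbi, Col5a1 and Col6a3, in T cell high (red circles) and T cell low clones (blue diamonds), by distance of the peak's centre from the start site in kb along the direction of transcription. The grey area is the gene record. Sparc and Tgfbi carry their tallest peak upstream of the start, Col5a1 at it and Col6a3 inside the gene.

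Tgfbi encodes a secreted protein induced by TGF-beta that links collagen to integrins. Summed over 5 peaks it had 21.0, 34.4 and 57.2 CPM at the lowest, median and highest T cell high clone, against 15.7, 38.8 and 54.3 CPM in T cell low clones. High and low clones occurred in both groups: 6421c2, 7160c2 and 6694c2 were highest, while 6499c3, 6555c3 and 6499c4 were lowest. The means were 37.3 ± 15.7 CPM in T cell high and 36.7 ± 12.2 CPM in T cell low clones (SD, n = 6 and 7), with a log2 fold change of 0.01 and an adjusted p of 0.995 by edgeR. The gene body alone, which holds only the promoter peak, gave a log2 fold change of -0.16.

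The tallest Tgfbi peak, chr13:56600977-56601824, was centred at -8186 bp from the start site of the gene (chr13:56609586-56639359) and overlapped the 2010203P06Rik record. It ranged from 1.96 CPM in 6499c3 to 36.2 CPM in 6694c2, an 18.4-fold span between T cell low clones. Its means were 17.3 ± 7.86 CPM in T cell high and 21.5 ± 10.9 CPM in T cell low clones. Its log2 fold change was -0.33 ± 0.43 (SE), with an adjusted p of 0.917 by edgeR. The peak at the promoter printed above, chr13:56609211-56609839, averaged 5.21 ± 3.29 CPM in T cell high and 5.79 ± 3.37 CPM in T cell low clones (log2 fold change -0.16). Downstream, peak 4 at chr13:56648053-56649005 had 7.96 ± 5.05 CPM in T cell high and 4.36 ± 2.86 CPM in T cell low clones, with an adjusted p of 0.808 by edgeR.

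Tnc encodes tenascin-C, a large glycoprotein that loosens cell adhesion and is laid down in wounds and tumour stroma. Its 2 peaks summed to 4.39, 10.9 and 16.8 CPM at the lowest, median and highest T cell high clone, against 2.62, 8.62 and 15.5 CPM in T cell low clones. The clones 6555c3, 6421c2 and 6556c3 were high and 6499c3 and 2838c3 low, so that each group held both. The means were 11.1 ± 5.32 CPM in T cell high and 9.27 ± 4.32 CPM in T cell low clones (SD, n = 6 and 7). The log2 fold change was 0.26, with a 95% interval from -0.60 to 1.12 and an adjusted p of 0.920 by edgeR.

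The Tnc promoter peak was the taller of the pair. It lay at chr4:64046727-64047618, at the start of the gene record chr4:63959785-64047015, overlapped the neighbouring 8030451A03Rik record, and covered the whole window printed above. It averaged 7.44 ± 4.78 CPM in T cell high and 6.04 ± 2.81 CPM in T cell low clones, with a log2 fold change of 0.27 ± 0.47 (SE) and an adjusted p of 0.946 by edgeR. The other peak, chr4:63948081-63948582, lay 11203 bp beyond the far end of the gene and had 0 counts in 6499c3.

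Tnc levels also moved with the read signal of the surrounding peaks. For each clone the surroundings were summarised as the median log2 CPM deviation of tested peaks within 2 Mb, leaving out 100 kb around the gene. Around Tnc this ran from -0.71 in 6422c1 to 0.94 in 6421c2. Pearson's r between Tnc and its surroundings was 0.65 and Spearman's rho 0.69 over 13 clones, and r was 0.50 without the 2 clones farthest from the median. These are descriptions, and the points share library and depth. With the surroundings as an offset in the fit, the log2 fold change of Tnc turned to -0.14. Fn1 turned as well, to -0.05, with an r of 0.63 to its surroundings (rho 0.51, and 0.40 without the 2 farthest clones). Over the 9 genes r to the surroundings ran from -0.35 for Col5a1 to 0.65 for Tnc, and it was also below 0 for Fbn1, at -0.19. DNA dosage was not measured, so in this signal it cannot be told apart from accessibility. The part of the surroundings in these values was not tested.

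**Figure D3:**
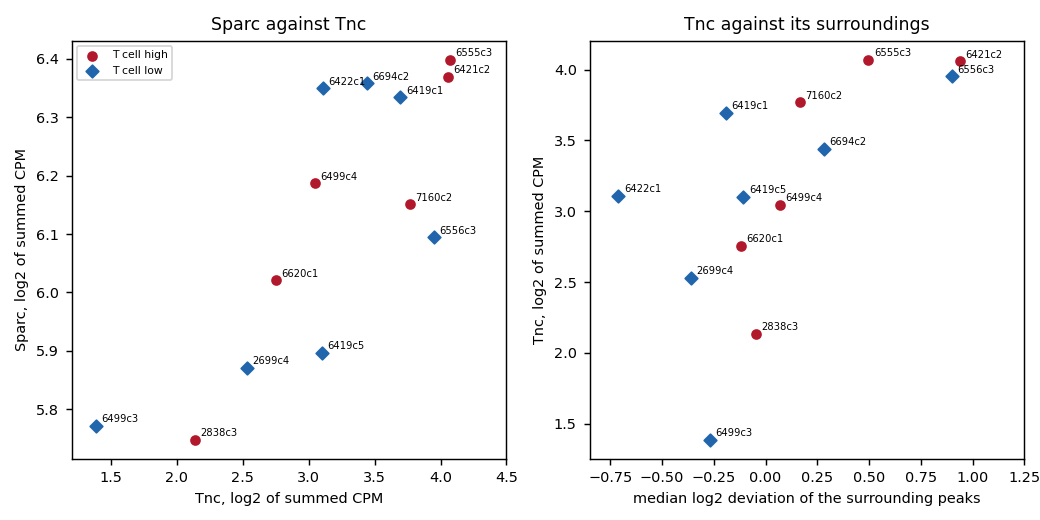
Left, log2 of summed CPM of Sparc against that of Tnc. Right, log2 of summed CPM of Tnc against the median log2 deviation of the peaks around it. Each point is 1 clone, T cell high as red circles and T cell low as blue diamonds (n = 13). The clones 6499c3 and 2838c3 are low and 6421c2 and 6555c3 high for both genes, and 6421c2 has the highest surrounding signal, 0.94.

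Sparc and Tnc, on different chromosomes, had the highest r of the set before the surroundings were subtracted. Pearson's r was 0.80 and Spearman's rho 0.81 over the 13 clones, r was 0.64 without the 2 clones farthest from the median, and 0.39 after each gene's surroundings were subtracted. After that subtraction Sparc and Tgfbi were highest, at 0.62, and Tgfbi and Col5a1 next, at 0.57. The values that follow are without subtraction. Of all pairs of tested genes 0.25% had an r at or above the 0.80 of Sparc and Tnc. That pair was picked as the highest of 36, whereas the share is for any 1 pair, so the share does not measure chance. Over the 36 pairs of the 9 genes, r ranged from -0.55 (Fn1 and Loxl2, rho -0.62) to 0.80. The median was 0.20, and 28 pairs were above 0. The median over all pairs of tested genes was 0.02, with 52.5% above 0. After Sparc and Tnc, the pair with the next highest unsubtracted r was Tgfbi and Fbn1, at 0.64 (rho 0.58).

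Col5a1 encodes a chain of type V collagen, which sets the diameter of collagen fibrils. All of its 6 peaks lay in the gene (chr2:27886381-28039510). Summed accessibility was 38.5, 56.7 and 88.1 CPM at the lowest, median and highest T cell high clone, against 34.7, 59.6 and 79.9 CPM in T cell low clones. The highest was 2838c3 and the lowest were 6499c3 and 2699c4, with wide overlap. The means were 59.2 ± 16.4 CPM in T cell high and 57.0 ± 18.2 CPM in T cell low clones (SD, n = 6 and 7). On the log2 scale the fold change was 0.06, with an adjusted p of 0.971 by edgeR.

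The GC-rich promoter printed above lies in the widest and tallest Col5a1 peak, chr2:27885608-27887384, of 1777 bp. It averaged 19.1 ± 8.48 CPM in T cell high and 20.03 ± 7.21 CPM in T cell low clones, with 34.6 CPM in 2838c3 as the highest value. Its log2 fold change was -0.06 ± 0.31 (SE) and its adjusted p 0.983 by edgeR. The intragenic peak 6, chr2:27939280-27940103, had the smallest p of the Col5a1 peaks and averaged 10.3 ± 4.87 CPM in T cell high and 8.41 ± 4.16 CPM in T cell low clones (log2 fold change 0.26, adjusted p 0.936 by edgeR).

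Col6a3 encodes a chain of the beaded-filament collagen VI. Of the 9 genes it had the smallest summed p. Its 6 peaks summed to 39.0, 47.1 and 53.5 CPM at the lowest, median and highest T cell high clone, against 24.1, 39.2 and 50.7 CPM in T cell low clones. The 2 lowest clones, 6419c1 and 6499c3, were both T cell low, and the other T cell low clones lay within or just under the T cell high range. The means were 46.6 ± 6.60 CPM in T cell high and 38.4 ± 9.81 CPM in T cell low clones (SD, n = 6 and 7). Its log2 fold change was 0.28, with a 95% interval from -0.14 to 0.71, an unadjusted p of 0.181 and an adjusted p of 0.791 by edgeR.

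No peak overlapped the Col6a3 promoter window (gene body chr1:90766860-90844001). The tallest peak, chr1:90834595-90835317, was centred 9015 bp inside the gene and averaged 20.2 ± 5.10 CPM in T cell high and 17.4 ± 7.57 CPM in T cell low clones, with 5.89 CPM in 6499c3 as the lowest value. Its log2 fold change was 0.21 with an adjusted p of 0.933 by edgeR. Peak 5 at chr1:90848473-90849122, centred at -4826 bp from the start site, had 6.21 ± 2.45 CPM in T cell high and 3.84 ± 2.39 CPM in T cell low clones. The log2 fold change was 0.74, with an unadjusted p of 0.116 and an adjusted p of 0.799 by edgeR. Without 2699c4 its log2 fold change was 1.03 and its unadjusted p 0.0398, with an adjusted p of 0.726, and without 6499c4 it was 0.52 with an unadjusted p of 0.306.

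Fbn1 encodes fibrillin-1, the main component of microfibrils, which scaffold elastic fibres and hold latent TGF-beta. This 205892 bp gene (chr2:125300594-125506485) had 2 peaks, both near the end of transcription, and none at its promoter window. Summed accessibility was 5.48, 17.8 and 32.7 CPM at the lowest, median and highest T cell high clone, against 8.83, 17.1 and 35.4 CPM in T cell low clones. It varied more between clones than 88.1% of tested genes by the SD of log2 CPM, with 6620c1 lowest and 6419c5 highest. These values rest on 13 to 123 counts per library, and the part of counting error in the spread was not tested. The means were 19.2 ± 11.4 CPM in T cell high and 19.3 ± 9.31 CPM in T cell low clones (SD, n = 6 and 7). On the log2 scale the fold change was -0.02, with an adjusted p of 0.996 by edgeR.

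The taller Fbn1 peak, chr2:125301934-125303024, averaged 11.6 ± 5.77 CPM in T cell high and 13.6 ± 6.42 CPM in T cell low clones (adjusted p 0.942 by edgeR). Peak 1, chr2:125293627-125294514, lay 6080 bp beyond the gene's end and averaged 7.67 ± 6.06 CPM in T cell high and 5.79 ± 5.54 CPM in T cell low clones. In T cell low clones its highest value, 18.2 CPM in 6419c5, stood far above the next, 4.76 CPM. Without 6419c5 its log2 fold change of 0.40 was 1.03.

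Lox encodes lysyl oxidase, the enzyme that starts the crosslinking of collagen and elastin. Its gene (chr18:52516060-52529867) had no peak in the body and 1 in the flank, chr18:52535015-52535973, which lay 5148 bp outside the gene. Accessibility there was 1.78, 3.31 and 9.04 CPM at the lowest, median and highest T cell high clone, against 1.31, 4.83 and 20.04 CPM in T cell low clones. The clones 6556c3, 2699c4 and 2838c3 were highest and the rest lower, so the groups overlapped. The value of 6556c3 rests on 22 counts, with a 95% Poisson interval from 12.6 to 30.3 CPM. That of 6499c3 rests on 4 counts, with an interval from 0.357 to 3.35 CPM. Both intervals treat every count as independent and leave out all variation other than counting error. Because both ends of a fragment can be counted, they can be too narrow even for that.

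The Lox peak averaged 4.17 ± 2.65 CPM in T cell high and 7.14 ± 6.68 CPM in T cell low clones (SD, n = 6 and 7). Its log2 fold change was -0.68, with a 95% interval from -1.88 to 0.52 and an adjusted p of 0.830 by edgeR. Without 6556c3 it was -0.25, and without 2838c3 it was -1.12. Lox varied more between clones than 94.9% of tested genes, with an SD of log2 CPM of 1.01. As a single peak its SD was above that of 84.7% of tested peaks. The part of counting error in this spread was not tested.

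Loxl2 encodes lysyl oxidase-like 2, a related oxidase known for crosslinking basement membrane collagen IV. Its 2 peaks summed to 17.7, 23.1 and 33.1 CPM at the lowest, median and highest T cell high clone, against 12.9, 25.2 and 41.0 CPM in T cell low clones. Both the highest clone, 6694c2, and the lowest, 2699c4, were T cell low. The means were 24.4 ± 5.40 CPM in T cell high and 25.5 ± 9.003 CPM in T cell low clones (SD, n = 6 and 7). The log2 fold change was -0.06, with an adjusted p of 0.973 by edgeR.

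Neither Loxl2 peak can be assigned to this gene alone. Peak 1, chr14:69691705-69692939, lay in the gene (chr14:69608692-69695834) over the Mir6950 record and averaged 9.03 ± 4.56 CPM in T cell high and 10.9 ± 5.74 CPM in T cell low clones (adjusted p 0.941 by edgeR). Peak 2, chr14:69706828-69707840, lay 10994 bp outside it within the R3hcc1 record and averaged 15.3 ± 3.51 CPM in T cell high and 14.6 ± 4.63 CPM in T cell low clones (adjusted p 0.981 by edgeR).

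**Figure D4:**
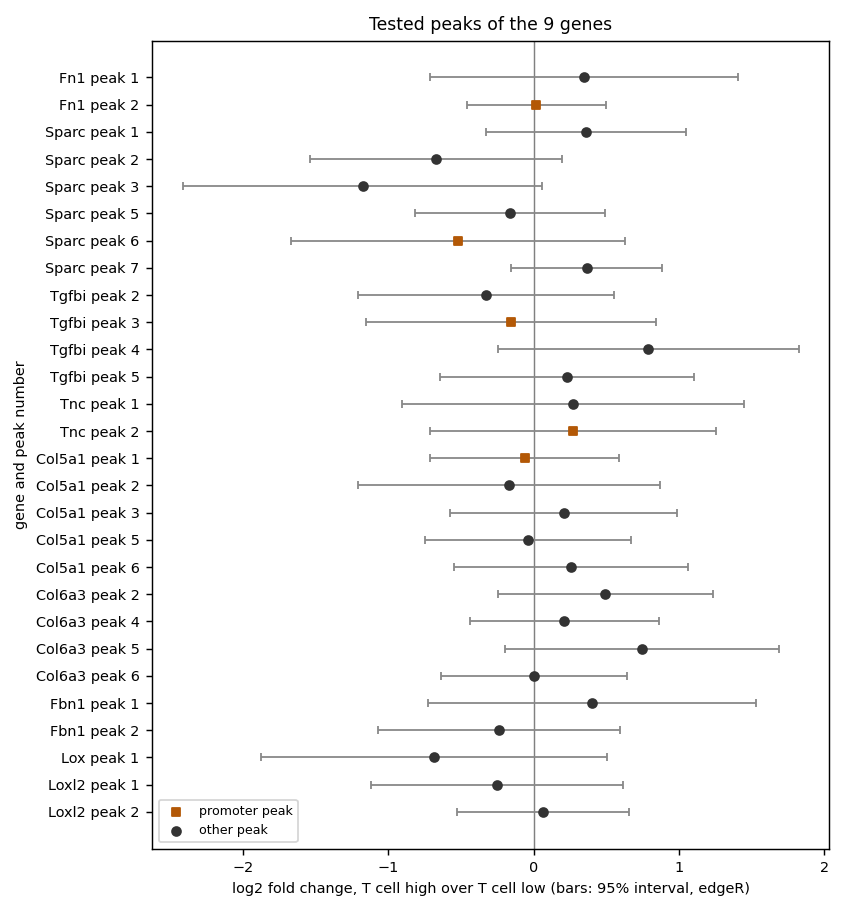
Log2 fold change, T cell high over T cell low, of the 28 tested peaks, with 95% intervals from edgeR. Orange squares are the peaks at a promoter window or, for Fn1, at the gene end, and black circles the others. Every interval includes 0, and the lowest estimate is -1.18 at Sparc peak 3.

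Clones of both groups stood at the upper and lower ends for this set of genes. Each gene's log2 CPM was set to SD units around its own mean, and the 9 values of a clone were averaged. The T cell high clone 6421c2 was highest at 0.75 and the T cell low clone 6694c2 followed at 0.55, each above the gene's own mean for 7 of 9 genes. The T cell low clone 6499c3 was lowest at -1.28. It had the lowest value of all 13 clones for 4 of the 9 genes (Tgfbi, Tnc, Col5a1 and Lox) and was above the mean for 1, Loxl2. How often 6499c3 was lowest among all tested genes was not counted. These values therefore do not show a trait particular to this set. The next lowest, 6620c1 at -0.40 and 6499c4 at -0.39, were T cell high.

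The median SD of log2 CPM of the 28 tested peaks was 0.66, as over all tested peaks, 0.66. The summed genes spread from Sparc, with a 1.57-fold ratio of highest to lowest clone, to Lox, with a 15.3-fold ratio. The lowest clone, 6499c3, was not shallow: it had 3283310 counts in peaks, more than 8 of the 12 other libraries.

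**Figure D5:**
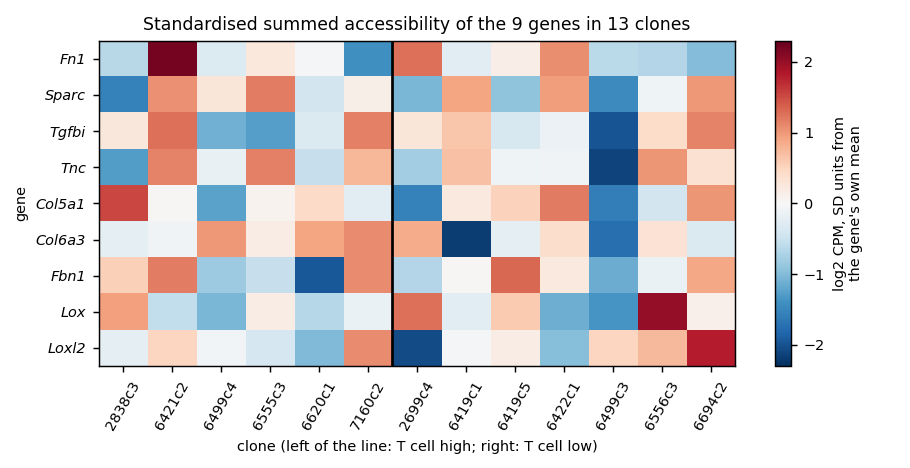
Log2 CPM of the summed peaks of each gene (rows) in each clone (columns, T cell high left of the line and T cell low right of it), in SD units from the gene's own mean over 13 clones. The column of 6499c3 is low for all genes but Loxl2, and 6421c2 is high for 7 of 9 genes.

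The clones 6499c4 and 6499c3 share the number in their names and differ in T cell group; what that number stands for is not stated in the labels. The T cell high clone 6499c4 exceeded the T cell low clone 6499c3 at 8 of the 9 genes, by a log2 difference of 1.45 for Tnc (8.26 and 2.62 CPM), 0.95 for Col6a3 (52.5 and 26.8 CPM) and 0.12 for Fn1. Loxl2 differed the other way, at -0.23. The median absolute difference between these clones over all tested genes was 0.44. The share of all tested genes at which 6499c4 exceeded 6499c3 was not counted, so the direction is not shown to be particular to these genes. The T cell low clones 6419c1 and 6419c5 differed by up to 1.02 in size, at Fbn1 (17.1 and 35.4 CPM). Each pair is 1 library against 1, so these differences have no replicate check.

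Among 31734 tested genes that share no peak with the set, the 5 whose profile over the 13 clones lay nearest to the mean profile of the 9 genes were Gm34992, Gm35935, Spdye4b, Rbak and Rbakdn. Their root mean square differences were 0.572, 0.587, 0.591, 0.593 and 0.593 SD units, against a median of 1.12 over all candidates. Rbak and Rbakdn had identical values and so are not separate observations.

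The wider matrix programme was described with lists of other genes. Of 16 other collagens, 15 were tested, 6 higher and 9 lower in T cell high clones, with a median log2 fold change of -0.11 against -0.02 over all genes. By unadjusted p under 0.05, which 7.03% of all genes met, there was 1, Col5a3, a further type V collagen chain, with 23.0 ± 9.06 CPM in T cell high and 35.9 ± 13.4 CPM in T cell low clones (log2 fold change -0.64, adjusted p 0.684 by edgeR). Its gene body alone gave an unadjusted p of 0.0625 by edgeR. Of the 15 collagen-processing and crosslinking enzymes, which include the other lysyl oxidase-like genes, 6 were higher and 9 lower, with a median of -0.10 and 0 at an unadjusted p under 0.05. The smallest p there was that of P4ha2, a prolyl hydroxylase subunit, with 45.9 ± 15.2 CPM in T cell high and 32.1 ± 10.8 CPM in T cell low clones.

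Elastic fibre and matricellular genes gave 23 tested of 26 listed, 10 higher and 13 lower, with a median log2 fold change of -0.11. At an unadjusted p under 0.05 there were 3, against 7.03% of all genes tested. The fibulin gene Fbln2 had 232.5 ± 42.2 CPM in T cell high and 183.1 ± 29.5 CPM in T cell low clones. For Fbln2 the log2 fold change was 0.35 with the 20 kb window and 0.06 over the gene body alone, where the unadjusted p was 0.770. Another fibulin gene, Fbln1, had 51.4 ± 15.4 CPM in T cell high and 74.6 ± 18.7 CPM in T cell low clones. Thbs2, which encodes thrombospondin-2, had 8.92 ± 6.07 CPM in T cell high and 16.5 ± 8.42 CPM in T cell low clones. In the gene body alone Fbln1 had an unadjusted p of 0.00783 by edgeR, and Thbs2 was not tested. None of the 3 passed the adjusted test.

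Matrix receptors gave 16 tested of 17 listed, 6 higher and 10 lower, with a median of -0.08. The 3 integrin genes Itgb8, Itga1 and Itgb5 had an unadjusted p under 0.05, against 7.03% of all genes tested. Itgb8, whose product activates latent TGF-beta, had 19.95 ± 7.73 CPM in T cell high and 37.0 ± 6.46 CPM in T cell low clones. On the log2 scale the fold change was -0.90, with an adjusted p of 0.531 by edgeR. Itga1, the collagen receptor subunit alpha 1, had 147.2 ± 12.1 CPM in T cell high and 197.3 ± 26.2 CPM in T cell low clones (adjusted p 0.581), and Itgb5 had 118.5 ± 16.9 CPM in T cell high and 159.8 ± 36.5 CPM in T cell low clones (adjusted p 0.677). Gene bodies alone gave unadjusted p-values by edgeR of 0.00227 for Itgb8, 0.00904 for Itga1 and 0.00759 for Itgb5. Matrix proteases and their inhibitors gave 12 tested of 15 listed, 7 higher and 5 lower, a median of 0.03 and 0 at an unadjusted p under 0.05. Mmp7, which encodes matrilysin, had the smallest p there.

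Of the markers of other cells that a sort of tumour cells could carry, 0 passed the adjusted test. The summed level of fibroblast and pericyte markers ranged from 317 to 450 CPM in T cell high and from 338 to 440 CPM in T cell low clones. Of its 14 genes 10 had a peak, 4 were higher and 6 lower, and Dcn, Lum, Col1a2 and Fap had none in their windows. Those with peaks included Col1a1, at 60.4 to 114.5 CPM over all clones, Acta2, at 31.5 to 73.5 CPM, and Pdgfra, at 21.7 to 56.5 CPM. Leukocyte markers ranged from 159 to 243 CPM in T cell high and from 190 to 295 CPM in T cell low clones, with 6 of 8 genes having a peak and none at Laptm5 or Cd48. Endothelial markers ranged from 156 to 236 CPM in T cell high and from 108 to 222 CPM in T cell low clones. Of the 7 listed, 5 were tested, 3 higher and 2 lower in T cell high clones. At an unadjusted p under 0.05 there were 2, Tek and Kdr, both higher, against 7.03% of all genes tested. Over the gene body alone the unadjusted p by edgeR was 0.397 for Kdr and 5.62e-05 for Tek. Tek, an endothelial receptor gene, had 36.0 ± 4.61 CPM in T cell high and 14.1 ± 5.48 CPM in T cell low clones, with an adjusted p of 0.342 by edgeR. Skin and muscle markers stayed between 56.1 and 94.5 CPM in all clones.

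Epithelial markers of the labelled tumour cells had open chromatin in every clone. Their sum ranged from 887 to 1280 CPM in T cell high and from 971 to 1303 CPM in T cell low clones, over 9 genes all with peaks. All 9 were tested, 6 higher and 3 lower in T cell high clones, the lower ones being Cdh1, Krt8 and Krt19. At an unadjusted p under 0.05 there were 2, Epcam and Cldn4, both higher, against 7.03% of all genes tested. Epcam had 68.2 ± 36.3 CPM in T cell high and 30.1 ± 11.9 CPM in T cell low clones. With the gene body alone the unadjusted p by edgeR was 0.00249 for Epcam and 0.104 for Cldn4. Genes of the mesenchymal state, such as Vim and Zeb1, summed to 419 to 740 CPM in T cell high and 565 to 705 CPM in T cell low clones. All 7 were tested, 3 higher in T cell high clones (Zeb1, Zeb2 and Twist1) and 4 lower. Cdh2, the N-cadherin gene, was the single member there with an unadjusted p under 0.05, against 7.03% of all genes tested. It had 111.9 ± 48.4 CPM in T cell high and 160.5 ± 9.74 CPM in T cell low clones, and over its gene body alone an unadjusted p of 0.0624 by edgeR. Neither list had a gene past the adjusted test.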

How the data were processed

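The authors deposited raw read counts per merged peak for 13 libraries. Per the file headers, featureCounts 1.5.3 made them, without its paired-end or strand settings, from alignment files named as free of duplicates. Both ends of a fragment can therefore be counted, and counts are not independent molecules. Per the submitters' processing notes, reads were placed on mm10, and DESeq2 is listed among the tools. What is not given in the sources used here is the aligner, the peak caller, the merging rule and any transposase shift. Peaks called over merged samples can include regions open in 1 clone.

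Groups came from the labels. The labels give no replicate numbers, and clones were numbered in accession order. Peaks were filtered with filterByExpr by group (59252 of 67945 kept), scaled by TMM and tested in R 4.3.3 with edgeR 4.0.16 (glmQLFit, glmQLFTest, Benjamini-Hochberg at 0.05), after a check on simulated data. Gene values sum all peaks within 20 kb of each of 32910 gene records with a peak. CPM used library sizes scaled by TMM, with a prior count of 2 on the log2 scale. A promoter peak overlapped a RefSeq window from 250 bases before to 50 after a start site, or, where none was listed, lay within 1 kb of a gene end. Named peaks were, for each gene, the promoter peak, the tallest and the one with the smallest p. In the wider lists the genes with an unadjusted p under 0.05, or the smallest p, were named. Further peaks and clones were named after their values were seen. Genes and lists were chosen with earlier results of these data known. Alternatives were other scaling, no filter, DESeq2 1.42.0, a regional offset, narrower windows and leaving out each library.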

Additional observations from a re-analysis of the deposited data

Results flagged for a closer look

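Within the groups, 54 sets of clone values (summed genes and named peaks) were examined for a clone far from the rest, and 4 had one. A nominal rate of about 1 in 20 by chance was not checked on these data. The sets also overlap, since the summed genes contain the named peaks. In T cell high clones, Fn1 summed was 85.07 CPM in 6421c2, with the next clone at 49.53 CPM. The tall Fn1 peak at the gene end carried this, with 75.99 CPM in 6421c2 and 44.07 CPM in the next clone, so both are 1 observation. The surroundings of Fn1 were also highest in 6421c2, with a median log2 deviation of 0.37, and their part in the value was not tested. Without 6421c2 the summed log2 fold change of Fn1 was -0.19.

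In T cell low clones, the Tgfbi promoter peak had 12.75 CPM in 6556c3, with the next clone at 6.636 CPM. 6556c3 was the shallowest T cell low library, with 1030616 counts in peaks. Without it the log2 fold change of that peak was 0.10. Fbn1 peak 1 had 18.25 CPM in 6419c5, with the next T cell low clone at 4.762 CPM. Among T cell high clones it had 16.3 CPM in 6421c2 and 13.6 CPM in 7160c2, and at most 7.75 CPM in the others. The T cell low clone 6419c1, whose name shares its number with 6419c5, was not similarly high.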

How the results depend on the processing

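Of the 9 summed genes 0 were called under each alternative run, and Lox has no peak in the narrower windows. Over all genes edgeR called 1, the DESeq2 Wald test called 28, and edgeR called 27 without 2838c3. The count of their peaks at an unadjusted p under 0.05 was 0 with DESeq2 size factors, no filter, the DESeq2 Wald test and the regional offset. The shares of all tested peaks were 6.83%, 7.37%, 7.78% and 6.19% in that order. It was between 0 and 2 when 1 library was left out. The narrower windows were run on summed genes only. The count of peaks was 1 (Sparc peak 3) without 6421c2, 7160c2 or 6499c3, and 2 (Sparc peak 3 and Col6a3 peak 5) without 2699c4. In these runs 7.59%, 7.01%, 6.66% and 6.68% of all tested peaks met that threshold, in the order named. Over all peaks, 0 were called by edgeR, 48 by the DESeq2 Wald test and 0 to 42 when 1 library was left out, with 42 without 2838c3. The share of all peaks at an unadjusted p under 0.05 was then 10.7%. The cause was not tested.

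Some log2 fold changes turned sign, among them Fbn1 peak 1 (0.40 with all libraries), Tnc peak 2 (0.27), Tnc summed (0.26) and Col5a1 peak 6 (0.26). With the regional offset they were -0.086 for Fn1 peak 2, 0.0011 for Tgfbi peak 3, -0.15 for Tnc peak 2, -0.046 for Fn1 and -0.14 for Tnc. With 5 kb of flank they were -0.39 for Sparc and -0.16 for Tgfbi, and with the gene body alone -0.33 and -0.16, since flank peaks drop out. Leaving out 1 library gave ranges of -0.21 to 0.14 for Fn1 peak 2, -0.38 to 0.10 for Tgfbi peak 3, -0.34 to 0.086 for Col5a1 peak 1, -0.036 to 0.50 for Col5a1 peak 6, -0.024 to 1.03 for Fbn1 peak 1 and -0.030 to 0.16 for Loxl2 peak 2. For summed genes the ranges were -0.19 to 0.14 for Fn1, -0.016 to 0.12 for Sparc, -0.16 to 0.13 for Tgfbi, -0.10 to 0.16 for Col5a1, -0.26 to 0.20 for Fbn1 and -0.18 to 0.074 for Loxl2. Tnc (0.08 to 0.43), Col6a3 (0.18 to 0.37) and Lox (-1.12 to -0.25) kept their direction when any 1 library was left out. No paired analysis was possible because the labels give no replicate numbers.

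Depth limits the weakest peaks most: Lox rests on 4 to 35 counts per library and Tnc on 8 to 93, and 5 of the 33 peaks were too low to test.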
